A study of Mus musculus with 6 samples.

Results

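Genes named in work on bile acids outside hepatocytes were followed through the immune cells of mouse livers: the receptors Gpbar1, Vdr, Nr1h3, Rora and S1pr2, and the exporters Abcb1a, Abcb1b, Abcc1 and Abcc4. The 9 genes are among 32286 genes counted, and they were chosen by name, with earlier results of these data known. Their raw counts of unique molecular identifiers (UMIs, each standing for 1 captured transcript) were read in every barcode with at least 500 genes, at least 1000 gene UMIs and at most 10% mitochondrial UMIs. Levels are CPM, the gene's UMIs scaled to 1000000 gene UMIs of all cells of a class in a library.

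Bile acids are made from cholesterol in hepatocytes and joined there to taurine or glycine by the enzyme Baat. Outside hepatocytes they act on a membrane receptor (GPBAR1, also called TGR5), on sphingosine 1-phosphate receptor 2, and on nuclear receptors that include the vitamin D receptor, while their oxysterol relatives act on the liver X receptors and sterols occupy the ligand pocket of RORα. Pumps of the ABC family, which spend ATP to push organic molecules out of the cell, carry bile acids and their conjugates among other cargo.

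The study compared 3 groups at day 30 after infection: mock-infected mice, mice given an adeno-associated virus with a control guide RNA (AAV-sgSCR), and mice given AAV-sgBaat, with a guide against Baat. Each group is 1 library that pools 3 tumor samples, so no p-value is possible, and intervals cover counting error only. CD45hi CD3+ T cells and the remaining CD45hi immune cells were sorted apart from digested whole liver and run as one. The labels title the mock livers native, while the series text speaks of tumor-bearing livers for all groups. The strain, the age and the promoter of the vectors are not given in the sources used here. Antibody tags for CD90.1 and CD90.2, the products of alternative alleles of Thy1, were read from the same matrices, and the labels do not say which cells carried which form. Baat UMIs numbered 5 (mock), 15 (AAV-sgSCR) and 1 (AAV-sgBaat), of which 11, 7 and 1 hepatocyte-like cells held 5, 9 and 1, too few to check the labels.

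After filtering, 6068 mock, 7332 AAV-sgSCR and 7094 AAV-sgBaat barcodes remained, from totals of 32005400 to 62570529 gene UMIs per library. Barcodes with transcripts of more than 1 lineage made up 8.82%, 19.0% and 33.4% of them. These and the doublet candidates were set aside, which left 5461, 5849 and 4575 cells with median depths of 4043, 5195 and 3443 UMIs, in 19 named classes. The set-aside barcodes held 16.0%, 33.0% and 50.6% of all UMIs, and results that rest on them are given both ways. Few barcodes were shared between libraries (10 to 25 per pair). The groups differed in makeup: B cell-like cells numbered 2697 in the mock library and 316 and 197 in the others, and neutrophil-like cells reached 20 only in the AAV libraries.

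Abcb1a and Abcb1b are the paired mouse copies of the single human gene for P-glycoprotein and lie next to each other on chromosome 5, Abcb1a at 8567091 to 8748575 and Abcb1b at 8798147 to 8866314 (GRCm38.p6, RefSeq). The pair peaked in different classes, as described with the exporters, so the 250 bases before each start are shown, both on the plus strand and 5′ to 3′, from the RefSeq promoter table. Capitals mark the GC box GGGCGG, the letters CCAAT, and the reverse complement of either. Promoters of this length held GGGCGG in 32.7% and CCAAT in 33.8% of 32851 entries, on either strand.
Abcb1a, chr5:8566841-8567090: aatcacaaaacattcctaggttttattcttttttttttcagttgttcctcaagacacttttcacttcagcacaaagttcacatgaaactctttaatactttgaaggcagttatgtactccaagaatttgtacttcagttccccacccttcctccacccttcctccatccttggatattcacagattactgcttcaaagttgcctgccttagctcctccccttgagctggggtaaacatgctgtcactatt
Abcb1b, chr5:8797897-8798146: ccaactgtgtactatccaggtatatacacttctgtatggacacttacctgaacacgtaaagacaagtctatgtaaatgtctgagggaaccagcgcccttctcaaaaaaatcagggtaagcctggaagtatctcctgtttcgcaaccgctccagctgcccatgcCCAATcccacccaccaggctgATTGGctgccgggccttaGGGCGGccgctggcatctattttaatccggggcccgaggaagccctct
The Abcb1a stretch held neither motif and had a GC content of 40.4%. The Abcb1b stretch held 1 GC box and 2 copies of CCAAT, in opposite orientations, and had a GC content of 52.8%. These matches describe letters and not bound sites. Each stretch lies before the listed start of its gene span, 181485 bases long for Abcb1a and 68168 for Abcb1b. Any start further inside a span was not examined, so the motifs of other promoters are not known here.

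A level is given for a class with at least 20 cells in a library, with an exact Poisson 95% interval. A ratio between libraries is given as log2 with an exact conditional 95% interval, for classes with at least 50 cells in both. A gene is called past 2-fold in a class where the ratio is at least 2-fold and both libraries together hold at least 20 UMIs, and the share of all genes past 2-fold in that class is printed as the background. Shares of cells with a UMI  are given unthinned and after thinning every cell to 1000 UMIs. Classes are called apart where their ranges over the libraries do not meet. Genes most like a member are those with the highest Pearson r of log2 mean level over the 19 classes, a description that says nothing of shared control.

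Of the 9 genes 8 were detected. Rora and Abcb1a lay in lymphocytes that carry T cell or natural killer receptors. Nr1h3 lay in macrophages, S1pr2 in macrophages, monocytes and killer lymphocytes, Abcc4 in monocytes and immature neutrophils, and Abcc1 in every class with a maximum in basophils and mast cells. Abcb1b had its highest means in progenitors, basophils and dendritic cells, with ranges that met. Vdr was close to the limit of counting everywhere, and Gpbar1 was never counted.

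**Figure D1:**
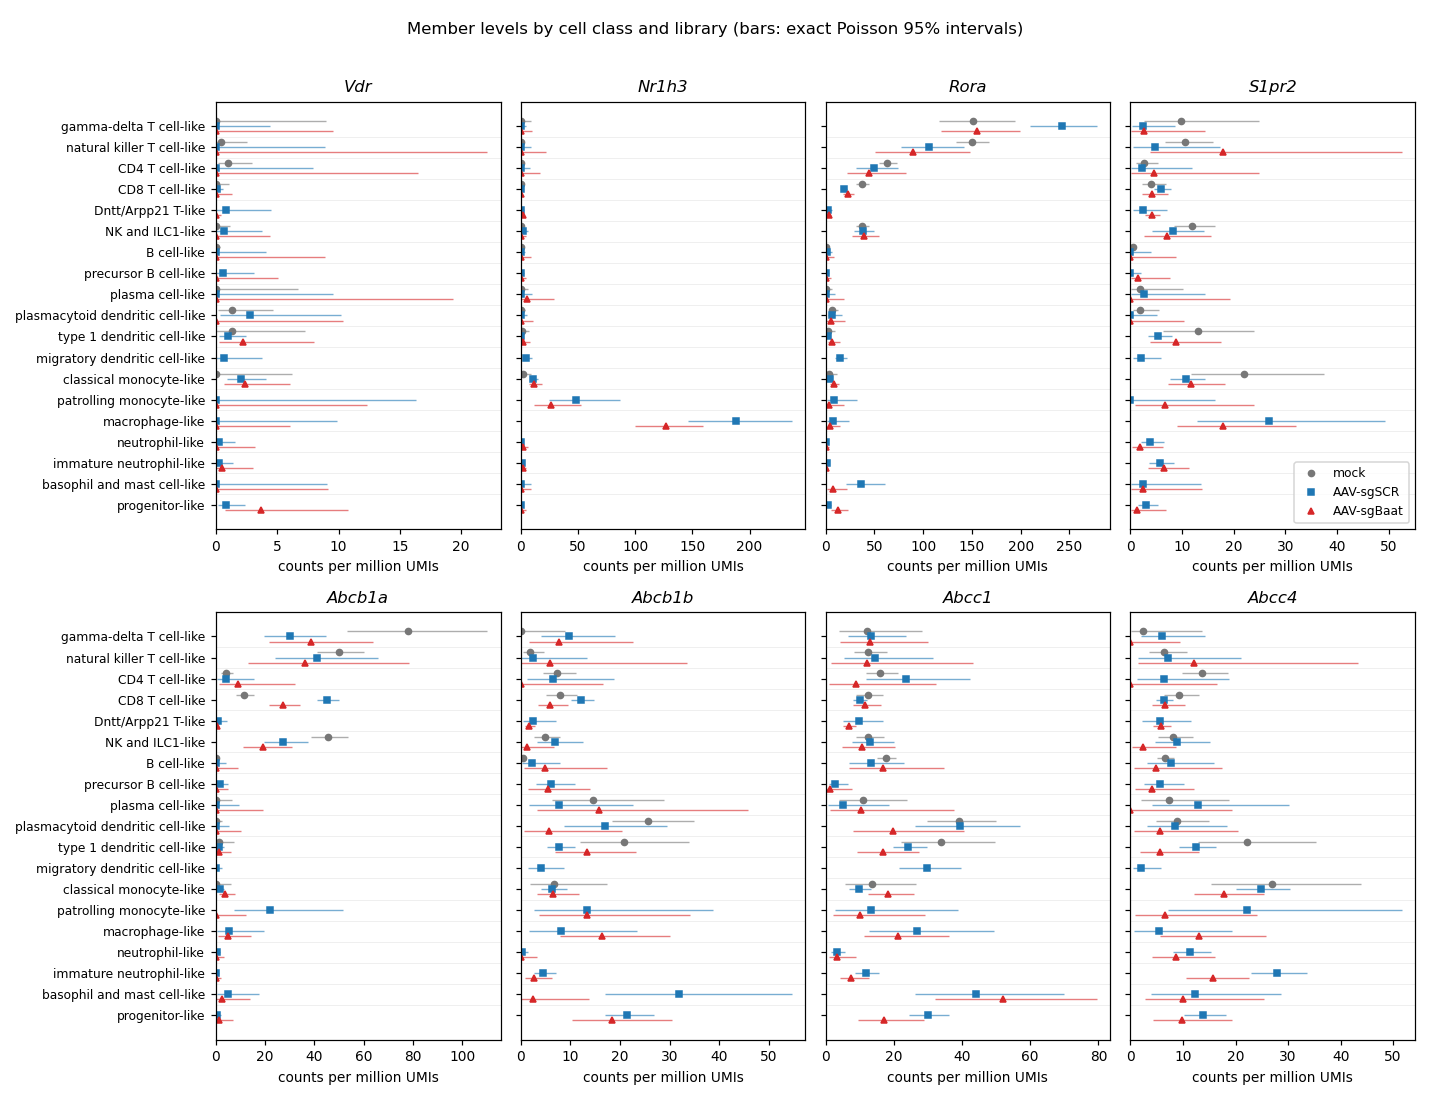
Levels of the detected genes (CPM, one panel per gene) in each named class, with 1 point per library and exact Poisson 95% intervals. Rora and Abcb1a means are highest in gamma-delta T cell-like cells and Nr1h3 is highest in macrophage-like cells.

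Gpbar1, which encodes the G protein-coupled bile acid receptor of macrophages and gallbladder epithelium, had 0 UMIs in all barcodes of the 3 libraries, also among the barcodes that the filters removed. It was 1 of 10188 genes, 31.6% of those listed, with no count anywhere. A count of 0 allows up to 0.0937 CPM in the mock library, 0.0479 in AAV-sgSCR and 0.062 in AAV-sgBaat, taking 3 counts as the limit. Within macrophage-like cells the limit was 8.04 CPM in AAV-sgSCR and 4.89 in AAV-sgBaat, so a level below a few CPM was not detectable at this depth. Gpbar1 spans 990 bases at 74278600 to 74279589 of chromosome 1, and Aamp, with 12430 UMIs, starts 250 bases after its end. Which reads between the neighbours were given to either gene is not given in the sources used here. The limits above hold for UMIs assigned to Gpbar1 and do not cover transcripts whose reads were not.

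Vdr encodes the vitamin D receptor, a nuclear receptor that also binds the secondary bile acid lithocholic acid (chromosome 15, 97854427 to 97908296). Passing barcodes of the mock, AAV-sgSCR and AAV-sgBaat libraries held 11, 45 and 38 Vdr UMIs, and never more than 2 times in a cell. In kept cells classical monocyte-like cells held 8 UMIs in AAV-sgSCR (2.09 CPM) and 4 in AAV-sgBaat (2.37 CPM). Type 1 dendritic cell-like cells, which cross-present antigen, held 1, 4 and 2 UMIs in mock, AAV-sgSCR and AAV-sgBaat. Progenitor-like cells held 3 in each AAV library, and their mean of 2.26 CPM was the highest of all classes. All CD8 T cell-like cells together held 1 Vdr UMI and macrophage-like cells held 0. The ranges of the leading classes overlapped, and no class had enough Vdr for a ratio between libraries. Of 11 targets and partners of the receptor, 3 could be compared in CD8 T cell-like cells and none was past 2-fold in AAV-sgBaat over AAV-sgSCR, and Cyp24a1, the enzyme that vitamin D induces to break itself down, was at 0 in all libraries.

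Nr1h3 encodes liver X receptor α, the oxysterol sensor that turns on cholesterol efflux genes in macrophages (chromosome 2, 91184061 to 91202829). Macrophage-like cells, led by C1qa, C1qb, C1qc and Cd5l, held 70 UMIs in AAV-sgSCR, or 188 CPM (146 to 237), and 78 in AAV-sgBaat, or 127 CPM (100 to 159). The mock library had 2 macrophage-like cells and gives no level. A UMI of Nr1h3 was found in 22 of 55 macrophage-like cells (40.0%) of AAV-sgSCR at a median of 6259 UMIs and in 37 of 119 (31.1%) of AAV-sgBaat at a median of 4870. After thinning to 1000 UMIs per cell the shares were 14.5% and 6.72%. B cell-like cells, taken as a lineage that should lack the gene, showed 0.0371%, 0% and 0% in the mock, AAV-sgSCR and AAV-sgBaat libraries at medians of 3421, 2650 and 2045 UMIs. The macrophage signal therefore lay far above the level in a lineage without the gene.

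Patrolling monocyte-like cells, which crawl along vessel walls, came next with 48.7 CPM (11 UMIs) in AAV-sgSCR and 26.6 CPM (8 UMIs) in AAV-sgBaat. These UMIs lay in 4 of 44 cells (9.09%) and 6 of 103 cells (5.83%). The range of this class did not meet that of macrophages above or of classical monocytes below, but it rests on these few cells. Classical monocyte-like cells held 1, 42 and 20 UMIs, or 1.69, 11 and 11.8 CPM in the mock, AAV-sgSCR and AAV-sgBaat libraries. Every other class with a level stayed at or under 5.22 CPM, and neighbours in that part of the order were not apart. In monocytes both AAV libraries lay above mock, with log2 ratios of 2.70 (95% interval 0.14 to 8.04) and 2.81 (0.17 to 8.18), but 1 mock UMI carries both intervals. Past 2-fold in that class were 12.8% of all genes tested in AAV-sgSCR over mock and 12.6% in AAV-sgBaat over mock. Per 10000 UMIs, summed macrophage markers in these monocytes were 9.37, 11.1 and 12.5, with 3 of 8 markers at 0 in mock and none in the others. Erythroid markers were 38.3, 14.2 and 0.0947 (2, 0 and 3 of 6 at 0), and neutrophil markers 1.59, 7.18 and 3.57 (3, 0 and 0 of 8 at 0). The part of these markers in the result was not tested.

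Within macrophage-like cells Nr1h3 was lower in AAV-sgBaat, with a log2 ratio of -0.56 (-1.05 to -0.07), short of 2-fold. The ratio turned to 0.37 when every barcode was kept and was -1.11 after thinning, so its direction depends on which barcodes are counted. None of the 3 genes that could be compared in this class (Nr1h3, S1pr2 and Abcc1) was past 2-fold, against 8.45% of all genes tested. Both groups carried all 8 macrophage markers, with sums of 132 and 118 per 10000 UMIs. The Kupffer cell markers differed, at 23.4 in AAV-sgSCR and 2.83 in AAV-sgBaat, with 3 of 7 at 0 in both, and T cell markers stood at 0.75 and 1.79. Whether these differences contribute to the Nr1h3 values was not tested.

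Most Nr1h3 UMIs of the AAV libraries were in barcodes that had been set aside, 61.1% in AAV-sgSCR and 75.0% in AAV-sgBaat, against 16.0% in mock. Set-aside barcodes nearest to macrophages held 63.2 CPM (51.2 to 77.3) in AAV-sgSCR, with 86 barcodes at a median of 14220 UMIs. In AAV-sgBaat they held 107 CPM (89.6 to 127), with 109 barcodes at 10399 UMIs. They carried 12.1 and 10.9 UMIs of Cd3d, Cd3e and Cd3g per 10000, where kept macrophages carried 0.161 and 0.489. A cluster of 358 kept AAV-sgBaat cells with both C1q and T cell transcripts, at a median of 1384.5 UMIs, held 7.87 CPM (3.16 to 16.2) and stayed unnamed. In that library a further 1069 set-aside barcodes near the same cluster held 18.9 CPM (16.2 to 21.9) with 12.1 C1q UMIs per 10000. C1q UMIs per 10000 were 102 and 92.4 in the kept macrophages of AAV-sgSCR and AAV-sgBaat and 60.9 and 69.9 in the set-aside barcodes nearest to them. The set-aside Nr1h3 level was below the kept one in AAV-sgSCR, while in AAV-sgBaat the intervals overlapped.

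**Figure D2:**
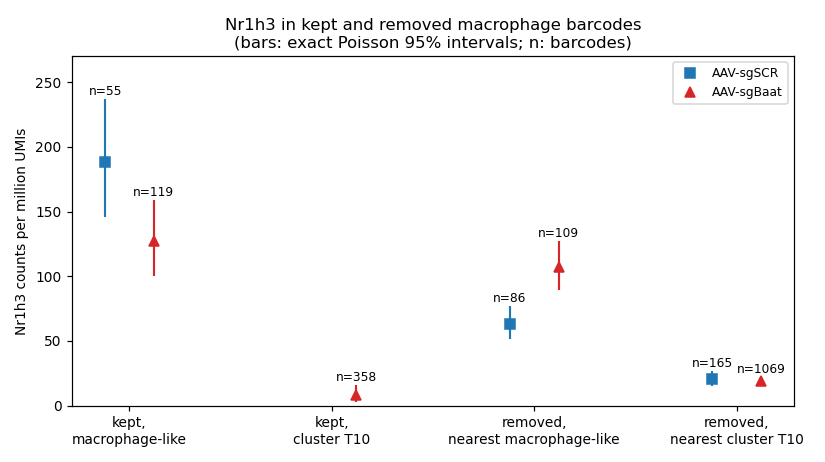
Nr1h3 level (CPM, exact Poisson 95% intervals) in kept and set-aside barcodes with macrophage transcripts, by library. The kept macrophage-like cells stand highest, at 188 CPM in AAV-sgSCR and 127 CPM in AAV-sgBaat.

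Of 16 liver X receptor targets, 14 could be compared in macrophage-like cells of AAV-sgBaat over AAV-sgSCR, and 1 was higher and 5 lower past 2-fold, where 2.82% and 5.63% of all genes were. Their median log2 ratio was -0.68, beside -0.07 for all 5276 genes tested. Mertk, a receptor for dying cells, stood at 61.9 CPM against 179, a log2 ratio of -1.54 (-2.15 to -0.94). The Kupffer cell markers of these cells, 23.4 per 10000 UMIs in AAV-sgSCR and 2.83 in AAV-sgBaat with 3 of 7 at 0 in both, moved with the list, and their part was not tested. Smpdl3a, a phosphodiesterase, stood at 122 against 305. Scd2, a fatty acid desaturase, stood at 31.0 against 75.0, and Apoc1, an apolipoprotein, at 39.1 against 80.4. In classical monocyte-like cells the same list was on the higher side of mock: 4 of 14 were higher and 0 lower in AAV-sgSCR (median 0.44, all genes 0.03, with 8.45% and 4.35% of all genes higher and lower), and 4 of 13 were higher and 1 lower in AAV-sgBaat (median 0.55, all genes -0.02, with 7.44% and 5.14%). Apoe, the main apolipoprotein of macrophages, was at 4010 CPM against 1490 in mock, and Apoc1, Apoc2 and Abca1 also passed the fold in AAV-sgSCR. Between the AAV libraries monocytes differed in 1 target each way, Pltp higher and Mertk lower, where 4.91% of all genes passed the fold in either direction. Mertk had 0 UMIs in AAV-sgBaat against 35 in AAV-sgSCR, and its ratio was formed with the 0 set to 3 counts. The genes whose levels followed Nr1h3 most closely over the 19 classes were Adamdec1 (Pearson r = 0.958), C1qb (0.946) and Acp2 (0.926), of 9096 compared, and Acp2 overlaps Nr1h3 at 1 end, from 91202812 to 91214098.

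Rora encodes RORα, a nuclear receptor needed for innate lymphoid cells (chromosome 9, 68653404 to 69388246). Gamma-delta T cell-like cells carried the highest level, 151, 242 and 155 CPM in mock, AAV-sgSCR and AAV-sgBaat (62, 201 and 60 UMIs). Natural killer T cell-like cells followed at 150, 106 and 89.9 CPM. CD4 T cell-like cells stood at 63.2, 49.4 and 44.8 CPM. The ranges of these 3 classes did not meet, by a narrow margin between the first pair, and CD4 cells were also apart from the natural killer and type 1 innate lymphoid class below them, at 37.3, 38.2 and 39.3 CPM. CD8 T cell-like cells, at 37.5, 18.6 and 23.1 CPM, overlapped that class and the basophils.

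A Rora UMI was found in 33.8%, 47.7% and 26.7% of gamma-delta cells at median depths of 4803.5, 4581 and 3075.5 UMIs. Among B cell-like cells, again taken as the lineage without the gene, 0.185%, 0.316% and 0% had one, at 3421, 2650 and 2045 UMIs. Thinned to 1000 UMIs the gamma-delta shares came to 18.8%, 17.6% and 13.3%, so the library order seen in the unthinned shares was not kept. Neutrophil-like and plasma cell-like cells held no Rora UMI. The level of the gamma-delta class was higher in AAV-sgSCR than in mock (log2 0.68, 0.27 to 1.12) and lower in AAV-sgBaat than in AAV-sgSCR (-0.65, -1.09 to -0.23), short of 2-fold both times.

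Clusters within each class showed where the Rora signal lay. Gamma-delta cells with Il17a, Cd163l1 and Trdv4 held 361 CPM (312 to 415) in AAV-sgSCR, where 73.8% had a UMI, and 286 CPM (217 to 368) in AAV-sgBaat, where 53.4% did. The mock library had 17 of them and gives no level. Gamma-delta cells with Klra receptors stood at 65.6, 20.8 and 5.51 CPM, from 20, 6 and 1 UMIs, with log2 ratios to mock of -1.66 (-3.26 to -0.29) and -3.57 (-8.95 to -0.93). These made up 78.8%, 39.2% and 51.7% of the class. The class ratios hold both this makeup and the levels inside clusters. Among CD4 cells, those with Foxp3, Ctla4 and Icos, the regulatory T cell genes, stood at 257, 139 and 114 CPM from 172, 20 and 8 UMIs, and the other CD4 cells at 7.70, 9.33 and 13.1 CPM. The Foxp3 cluster was above the other CD4 cells in all 3 libraries, and outside mock its cells were few (115, 38 and 23).

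In killer lymphocytes the same split appeared between neighbours. The cluster with Xcl1, Gzmc and Klrb1b, which was type 1 innate lymphoid-like, stood at 60.5, 55.3 and 72.8 CPM. The natural killer cluster with Klra4 and Klra8 stood at 22.6, 17.9 and 12.8 CPM, and the ranges of these clusters did not meet. Among CD8 cells those with Gzmk and Cxcr3 stood at 113, 59.0 and 53.4 CPM, while those with Pdcd1, Tox and Lag3, genes of chronically stimulated T cells, stood at 6.68 in AAV-sgSCR and 7.99 in AAV-sgBaat. A Cd8a or Cd8b1 UMI was found in 27 of 44, 257 of 423 and 170 of 276 cells of the Gzmk cluster, and in 842 of 848 and 188 of 194 of the Pdcd1 and Tox cluster. Naive-like CD8 cells with Dapl1 held 15.7, 6.94 and 8.73 CPM.

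**Figure D3:**
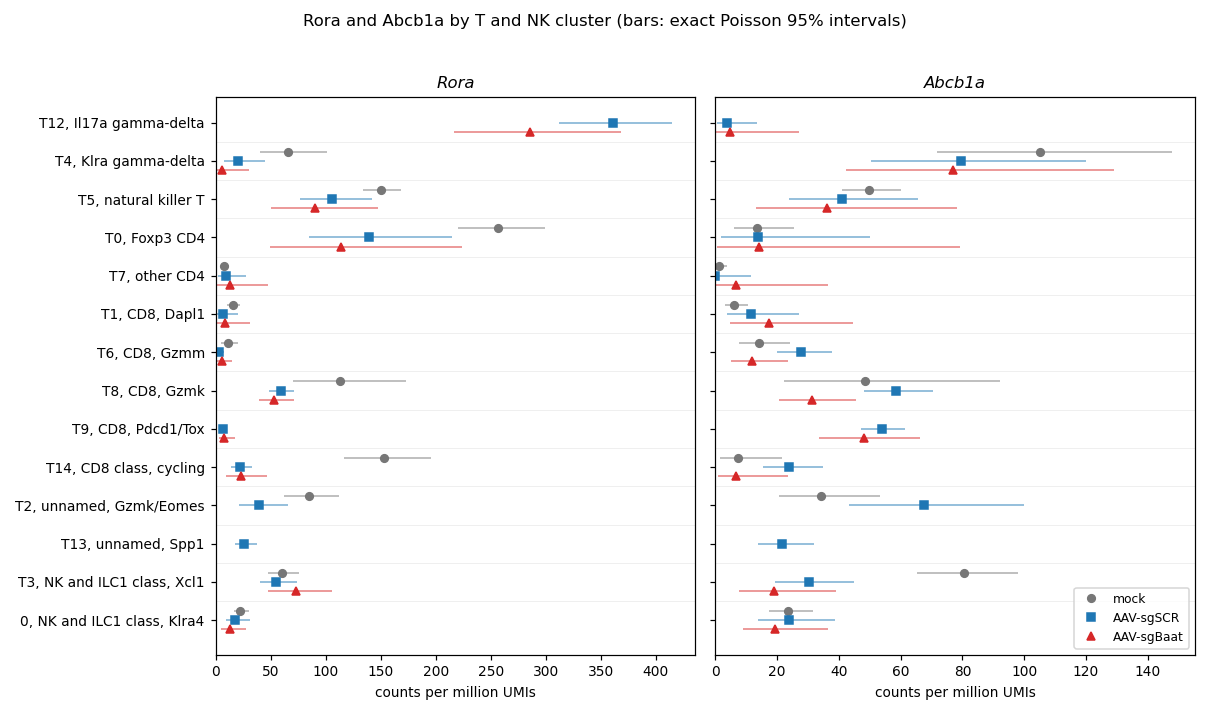
Levels of Rora and Abcb1a (CPM) in clusters of T and killer lymphocytes, each with its leading genes, 1 point per library and exact Poisson 95% intervals. Rora is highest in the Il17a gamma-delta cluster, at 361 CPM in AAV-sgSCR, where Abcb1a has 3.70 CPM.

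In CD8 T cell-like cells Rora was lower in AAV-sgSCR than in mock, with a log2 ratio of -1.01 (-1.35 to -0.67), and it was 1 of the genes past 2-fold among the 6 that could be compared there, against 15.5% of all genes tested. That call rests on a cluster of dividing cells, which held 62 of the 129 mock Rora UMIs in 27 cells, of which 12 had a Cd8a or Cd8b1 UMI. Without it the levels were 22.1, 18.2 and 23.2 CPM and the log2 ratio was -0.28 (-0.70 to 0.16). It was -1.84 with another clustering seed and -0.49 after thinning. AAV-sgBaat over mock was -0.70 (-1.15 to -0.26) and 0.07 without the dividing cells. AAV-sgBaat over AAV-sgSCR was 0.31 (-0.12 to 0.73).

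Rora differed by CD90 form within the CD8 cells. Cells in which the CD90.1 tag exceeded the CD90.2 tag, with at least 100 tag UMIs, numbered 869 in AAV-sgSCR and 206 in AAV-sgBaat and held 6.01 and 7.26 CPM (29 and 6 UMIs), while mock gave no level for that form. CD90.2-dominant cells of the mock, AAV-sgSCR and AAV-sgBaat libraries held 37.5, 31.1 and 30.1 CPM (128, 138 and 59 UMIs). The log2 ratio of CD90.1 over CD90.2 cells was -2.37 (-3.00 to -1.79) in AAV-sgSCR and -2.05 (-3.55 to -0.84) in AAV-sgBaat. Both AAV libraries thus showed the same order, by more than counting error. The forms differed in cluster: the Pdcd1 and Tox cluster made up 93.4% and 89.3% of CD90.1-dominant cells in AAV-sgSCR and AAV-sgBaat, and 0.402%, 3.65% and 0.421% of CD90.2-dominant cells in mock, AAV-sgSCR and AAV-sgBaat, so form and cluster cannot be told apart. Between CD90.2-dominant cells the libraries were close, with a log2 ratio of -0.27 (-0.63 to 0.09) for AAV-sgSCR over mock, or 0.50 (0.06 to 0.96) without the dividing cells, where the direction turned.

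Genes of the circadian clock were compared beside Rora, and which of them RORα acts on was not tested. In gamma-delta cells 6 of 10 could be compared between AAV-sgBaat and AAV-sgSCR, and 0 were higher and 3 lower past 2-fold, where 2.03% and 4.28% of all genes were, with a median log2 ratio of -0.71 beside 0.04 for all genes. Dbp stood at 10.3 CPM against 28.9, Per1, a light- and hormone-responsive repressor, at 12.9 against 33.8, and Cry1 at 10.3 against 25.3, from 4 or 5 UMIs each in AAV-sgBaat, and none of these intervals left out equal levels. In CD8 cells none of 7 passed the fold between the AAV libraries (median -0.24, all genes -0.06). Most like Rora over the 19 classes were Acsbg1 (r = 0.883), Ctsw (0.871) and Cd226 (0.867). In progenitor-like cells Rora was higher in AAV-sgBaat, at 12.3 against 2.75 CPM from 10 UMIs apiece, with a log2 ratio of 2.16 (0.74 to 3.58), where 13.4% of all genes were past 2-fold. That class was not alike in the libraries: per 10000 UMIs its T cell markers summed to 9.66 (AAV-sgBaat) and 1.84 (AAV-sgSCR), with 0 of 8 at 0 in both, and its erythroid markers to 1.29 and 45.4 (4 and 0 of 6 at 0). In the same order its neutrophil markers summed to 29.6 and 2.31 (1 and 0 of 8 at 0). Its platelet or megakaryocyte markers summed to 0.861 and 6.43 (1 and 0 of 5 at 0). The part of these cells in the ratio was not tested.

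S1pr2 encodes a sphingosine 1-phosphate receptor that holds cells in place and is activated by conjugated bile acids (chromosome 9, 20965952 to 20976793). Macrophage-like cells held 26.8 CPM (10 UMIs) in AAV-sgSCR and 17.9 (11 UMIs) in AAV-sgBaat, a log2 ratio of -0.58 (-1.96 to 0.81) that turned to 0.47 with every barcode kept. Set-aside barcodes held 17.8%, 42.1% and 60.6% of the S1pr2 UMIs of the mock, AAV-sgSCR and AAV-sgBaat libraries. Classical monocyte-like cells stood at 21.9, 10.7 and 11.8 CPM (13, 41 and 20 UMIs) in mock, AAV-sgSCR and AAV-sgBaat. Natural killer T cell-like cells, at 10.6, 4.82 and 18.0 CPM, and the killer and innate lymphoid class, at 11.9, 8.19 and 7.15, came after them, and the ranges of neighbours met throughout the order. CD8 T cell-like cells held 4.07, 5.99 and 4.21 CPM, with ratios between libraries whose intervals all spanned equality, such as -0.51 (-1.55 to 0.41) for AAV-sgBaat over AAV-sgSCR. B cell-like cells held 4, 0 and 0 UMIs.

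The mock library had more S1pr2 than AAV-sgSCR in classical monocytes and type 1 dendritic cells. The log2 ratio of AAV-sgSCR over mock was -1.04 (-1.97 to -0.01) in classical monocytes. It was -1.28 (-2.42 to -0.04) in type 1 dendritic cells, at 5.35 against 13 CPM, where 12.2% of all genes passed the fold. Both intervals end close to equality and rest on 13 and 10 mock UMIs, and both ratios fall short of 2-fold under an alternative, at -0.87 with another clustering seed and -0.79 with every barcode kept. In natural killer T cell-like cells AAV-sgSCR over mock was -1.14 (-4.27 to 0.88), from 2 and 23 UMIs, where 12.8% of all genes passed. Of the other sphingosine 1-phosphate genes in CD8 cells 7 of 12 could be compared, and none passed between the AAV libraries (median 0.01). Against mock S1pr1, the receptor that lets T cells leave tissue, passed in both, at 234 CPM in mock, 41.2 in AAV-sgSCR and 69.7 in AAV-sgBaat. In those comparisons 15.5% and 10.4% of all genes passed. Naive-like cells were 59.6%, 4.42% and 6.97% of the CD8 class in mock, AAV-sgSCR and AAV-sgBaat. The genes most like S1pr2 over the 19 classes were Sulf2 (r = 0.818), Srgap2 (0.80) and Ms4a6d (0.796).

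Abcb1a encodes P-glycoprotein, the drug pump that protects T cells of the ileum from bile acids. Gamma-delta T cell-like cells held 77.9, 30.2 and 38.7 CPM (32, 25 and 15 UMIs) in mock, AAV-sgSCR and AAV-sgBaat, natural killer T cell-like cells 49.8, 41.0 and 36.0, and the killer and innate lymphoid class 45.7, 27.3 and 19.1. CD8 T cell-like cells held 11.3, 45.3 and 27.3 CPM (39, 423 and 78 UMIs), and the ranges of these 4 classes overlapped. CD4 T cell-like cells stood lower, at 3.99, 4.30 and 8.95 CPM. B cell-like, plasma cell-like, plasmacytoid dendritic and migratory dendritic cells held 0 UMIs in every library that gave a level, including 2697 mock B cell-like cells.

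CD8 T cells of both AAV libraries carried more Abcb1a than mock. AAV-sgSCR over mock had a log2 ratio of 2.00 (1.52 to 2.51), which is 4.0-fold, and AAV-sgBaat over mock 1.27 (0.70 to 1.86). It was the only gene of the 6 higher past 2-fold in either, where 15.5% and 10.4% of all genes passed in either direction. The share of CD8 cells with a UMI was 6.56%, 20.6% and 9.96% at medians of 6124, 4984.5 and 3757 UMIs, and 0.596%, 3.82% and 4.13% after thinning to 1000 UMIs, beside 0% in B cell-like cells. The AAV libraries thus exceeded mock at lower depth as well. Leaving out the dividing cells gave 2.02 for AAV-sgSCR over mock, and classes drawn from marker UMIs gave 1.22 and 0.67 for the AAV libraries, the latter short of 2-fold.

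AAV-sgBaat over AAV-sgSCR was -0.73 (-1.10 to -0.38) for Abcb1a in CD8 cells, short of 2-fold, and -0.05 after thinning. None of the other CD8 ratios between these libraries passed except that of Abcb1b, 1 of 6, where 5.6% of all genes did, and the median of the 6 was -0.22 beside -0.06 for all genes. The CD8 class differed in makeup: naive-like cells with Dapl1 were 59.6% of it in mock, 4.42% in AAV-sgSCR and 6.97% in AAV-sgBaat, and the Pdcd1 and Tox cluster was 0.398%, 50.6% and 27.6%. Abcb1a stood at 53.9 CPM in that cluster in AAV-sgSCR and 48.0 in AAV-sgBaat, a log2 ratio of -0.17. In the Gzmk and Cxcr3 cluster it stood at 48.5, 58.4 and 31.3 CPM in mock, AAV-sgSCR and AAV-sgBaat (9, 110 and 27 UMIs), with -0.90 (-1.56 to -0.28) between the AAV libraries. In the naive-like cells it was 5.96, 11.6 and 17.5 CPM. Another CD8 cluster, 24.3%, 12.1% and 19.1% of the class, stood at 14.1, 27.8 and 11.9 CPM (13, 41 and 8 UMIs). Its log2 ratio was 0.98 (0.05 to 2.00) for AAV-sgSCR over mock and -1.22 (-2.52 to -0.11) between the AAV libraries. Within the Gzmk cluster the mock and AAV-sgSCR values overlapped, while in the class as a whole they did not. The parts of makeup and of levels inside clusters in the class ratios were not tested.

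By CD90 form, CD90.1-dominant CD8 cells held 50.4 CPM in AAV-sgSCR and 43.6 in AAV-sgBaat (243 and 36 UMIs). CD90.2-dominant cells held 11.1, 40.1 and 20.4 CPM in mock, AAV-sgSCR and AAV-sgBaat (38, 178 and 40 UMIs). CD90.2-dominant cells of AAV-sgSCR were thus above mock (log2 1.85, 1.34 to 2.39) and above AAV-sgBaat (AAV-sgBaat over AAV-sgSCR -0.98, -1.51 to -0.47). CD90.1-dominant cells of the AAV libraries were not apart, at -0.21 (-0.76 to 0.30). The CD90.1 over CD90.2 ratio was 0.33 (0.04 to 0.61) in AAV-sgSCR and 1.09 (0.40 to 1.78) in AAV-sgBaat. Abcb1a was thus higher and Rora lower in the CD90.1 form, which is nearly the Pdcd1 and Tox cluster, so this restates the difference between clusters.

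**Figure D4:**
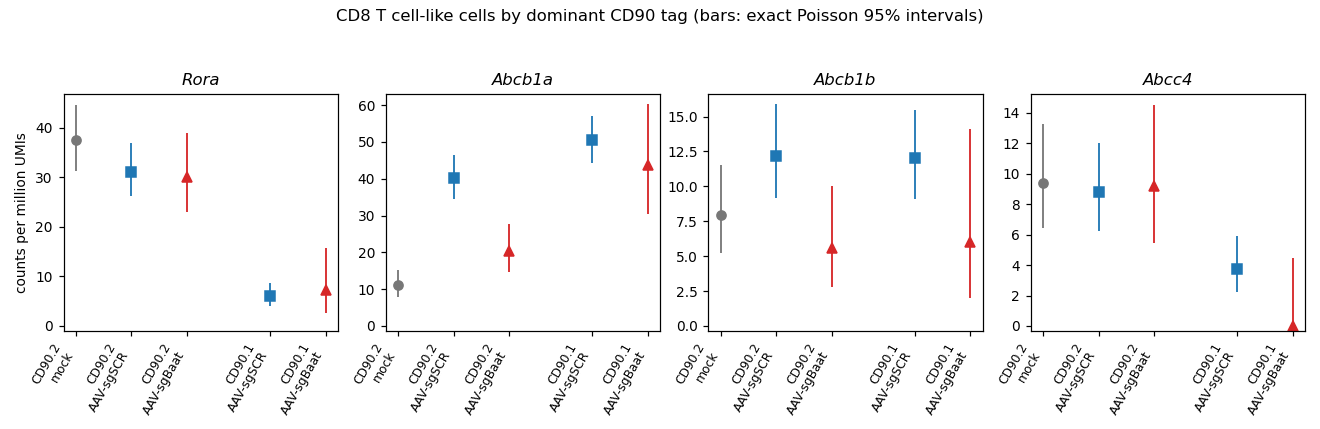
Levels (CPM, exact Poisson 95% intervals) of members in CD8 T cell-like cells split by the dominant CD90 tag, by library. CD90.1-dominant cells have less Rora (6.01 and 7.26 CPM) than CD90.2-dominant cells (30.1 to 37.5 CPM) and Abcb1a of 43.6 and 50.4 CPM.

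In gamma-delta and killer lymphocytes the mock library was the highest for Abcb1a. In gamma-delta cells AAV-sgSCR over mock was -1.37 (-2.19 to -0.57) and AAV-sgBaat over mock -1.01 (-2.0 to -0.08), where 13% and 11.7% of all genes passed the fold. The latter ratio was -0.79 at its smallest over the alternatives tried, short of 2-fold. Nearly all of the gamma-delta Abcb1a signal lay in the Klra cluster, at 105, 79.7 and 77.1 CPM (32, 23 and 14 UMIs), and within it the log2 ratios to mock were -0.40 and -0.44 with intervals that spanned equality. The Il17a cluster, which carried most Rora, held 3.70 and 4.84 CPM of Abcb1a in the AAV libraries, from 2 and 1 UMIs. In the killer and innate lymphoid class AAV-sgBaat over mock was -1.26 (-2.11 to -0.51), where 13% passed, and -0.82 at its smallest over the alternatives tried. AAV-sgSCR over mock was -0.74 (-1.29 to -0.23) in that class. There the Xcl1 and Gzmc cluster stood at 80.4, 30.2 and 18.9 CPM (97, 24 and 7 UMIs), with ratios to mock of -1.41 (-2.12 to -0.76) and -2.09 (-3.44 to -0.99). The Klra4 cluster stood at 23.6, 23.9 and 19.2 CPM. Most like Abcb1a over the 19 classes were Podnl1 (r = 0.923), Cd226 (0.912) and Fasl (0.904).

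Abcb1b, the other mouse P-glycoprotein gene, had another distribution. Progenitor-like cells, led by Car1, Pf4 and Prg2, held 21.5 CPM (78 UMIs) in AAV-sgSCR and 18.4 (15 UMIs) in AAV-sgBaat, a log2 ratio of -0.22 (-1.12 to 0.59). Erythroid, T cell, neutrophil and platelet markers of this class differed between the libraries, as given with Rora. The ratio ranged from -1.18 to -0.10 over the alternatives tried. Basophil and mast cell-like cells held 31.9 CPM (13 UMIs) and 2.48 (1 UMI). Plasmacytoid dendritic cell-like cells, the main source of type I interferon, stood at 25.6, 16.9 and 5.65 CPM in mock, AAV-sgSCR and AAV-sgBaat (40, 12 and 2 UMIs), and type 1 dendritic cell-like cells at 20.8, 7.78 and 13.3. These ranges met down the order. In some lymphocyte clusters with Abcb1a the count of Abcb1b was near 0: the Klra gamma-delta cells held 0, 0 and 1 UMIs, and the Xcl1 and Gzmc cells 1, 2 and 0. In others both were counted: in AAV-sgSCR the Gzmk and Cxcr3 CD8 cells held 22 Abcb1b UMIs (11.7 CPM) and the Pdcd1 and Tox CD8 cells 53 (12.2 CPM). How reads that fit both copies were counted is not given in the sources used here.

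In CD8 T cell-like cells Abcb1b stood at 7.84, 12.2 and 5.96 CPM (27, 114 and 17 UMIs). AAV-sgBaat over AAV-sgSCR was -1.03 (-1.86 to -0.29), or -0.96 (-1.82 to -0.19) without the dividing cells, which is short of 2-fold, and -0.33 at its smallest over the alternatives tried. AAV-sgSCR over mock was 0.64 (0.02 to 1.30), and AAV-sgBaat over mock -0.40 (-1.36 to 0.53). In CD90.2-dominant cells it was 7.92, 12.2 and 5.61 CPM, with -1.12 (-2.20 to -0.17) between the AAV libraries. In CD90.1-dominant cells it was 12 and 6.05, with -0.99 (-2.67 to 0.31). AAV-sgSCR over mock turned to -0.15 after thinning, and without the dividing cells it was 0.62 (-0.03 to 1.33), so whether AAV-sgSCR exceeds mock depends on the setting.

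Against mock, plasmacytoid dendritic cells of AAV-sgBaat had less Abcb1b (-2.18, -5.27 to -0.23), where 15.3% of all genes passed the fold, and type 1 dendritic cells of AAV-sgSCR had less (-1.42, -2.33 to -0.46). The first ratio rests on 2 UMIs. Most like Abcb1b over the classes were Tmem160 (r = 0.873), Magt1 (0.859) and Ergic3 (0.848).

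Abcc1 encodes MRP1, the exporter of leukotriene C4 and glutathione conjugates (chromosome 16, 14361453 to 14474878). Basophil and mast cell-like cells, which make that leukotriene, held 44.2 CPM (18 UMIs) in AAV-sgSCR and 52.0 (21 UMIs) in AAV-sgBaat, a log2 ratio of 0.24 (-0.74 to 1.23), and their range did not meet that of the next class. Plasmacytoid dendritic cell-like cells stood at 39.0, 39.4 and 19.8 CPM in mock, AAV-sgSCR and AAV-sgBaat, migratory dendritic cell-like cells at 29.6 in AAV-sgSCR, type 1 dendritic cell-like cells at 33.9, 24.3 and 16.7, macrophage-like cells at 26.8 and 21.2, and progenitor-like cells at 30.0 and 17.2. B cell-like cells held 17.7, 13.2 and 16.9 CPM. CD8 T cell-like cells held 12.5, 9.95 and 11.6 CPM (43, 93 and 33 UMIs). The lowest classes were neutrophil-like cells, at 3.32 and 3.49, and precursor B cell-like cells, at 2.77 and 1.37. Abcc1 was thus counted in all 19 classes, over a range narrower than that of Rora or Nr1h3.

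The CD8 ratios of Abcc1 were small, at 0.22 (-0.40 to 0.80) for AAV-sgBaat over AAV-sgSCR, -0.33 (-0.86 to 0.23) for AAV-sgSCR over mock and -0.11 (-0.81 to 0.58) for AAV-sgBaat over mock. Past 2-fold was only type 1 dendritic cells of AAV-sgBaat over mock, at -1.02 (-2.05 to -0.05), where 11.5% of all genes passed. That ratio was -0.86 at its smallest over the alternatives tried, short of 2-fold. CD90.1 and CD90.2 cells were not apart in Abcc1, with a log2 ratio of 0.04 (-0.59 to 0.67) in AAV-sgSCR. Alox5, the enzyme that starts leukotriene synthesis, was also highest in basophil and mast cell-like cells, at a mean of 259 CPM. Other lipid mediator genes had other leading classes. Ltc4s was highest in migratory dendritic cell-like cells, at 14.8 CPM. Alox5ap was highest in neutrophil-like cells, at a mean of 1570 CPM beside 1530 in basophil and mast cell-like cells. The genes most like Abcc1 were P2rx4 (r = 0.804), Fbxo6 (0.763) and Nudt8 (0.753).

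Abcc4 encodes MRP4, which exports cyclic nucleotides, prostaglandins and, together with glutathione, bile acids (chromosome 14, 118482692 to 118707856). Classical monocyte-like cells held 27.0, 24.8 and 17.8 CPM (16, 95 and 30 UMIs), with -0.48 (-1.12 to 0.12) between the AAV libraries. Immature neutrophil-like cells, rich in granule genes such as Camp and Ltf, held 27.9 CPM (113 UMIs) in AAV-sgSCR and 15.7 (29 UMIs) in AAV-sgBaat, with -0.83 (-1.47 to -0.23). Mature neutrophil-like cells held 11.3 and 8.73. The leading classes overlapped, and so did their neighbours down to the Dntt and Arpp21 T-like cells. CD8 T cell-like cells stood at 9.29, 6.31 and 6.66 CPM (32, 59 and 19 UMIs), with ratios of 0.08 (-0.75 to 0.84), -0.56 (-1.20 to 0.11) and -0.48 (-1.38 to 0.38) for AAV-sgBaat over AAV-sgSCR, AAV-sgSCR over mock and AAV-sgBaat over mock.

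Within CD8 cells Abcc4 was lower in CD90.1-dominant cells, at 3.73 CPM (18 UMIs) in AAV-sgSCR against 8.79 in CD90.2-dominant cells, a log2 ratio of -1.24 (-2.13 to -0.40). In AAV-sgBaat CD90.1-dominant cells held 0 UMIs, which allows up to 4.47 CPM, against 9.18. CD90.2-dominant mock cells stood at 9.39 CPM, so that form held like levels in all libraries. In type 1 dendritic cells Abcc4 stood at 22.1, 12.4 and 5.55 CPM (17, 51 and 5 UMIs). AAV-sgBaat over mock was -1.99 (-3.79 to -0.50), and AAV-sgBaat over AAV-sgSCR -1.16 (-2.84 to 0.16), 1 of 4 genes past 2-fold there, where 10.7% of all genes were. In CD4 cells AAV-sgSCR over mock was -1.08 (-3.42 to 0.57), where 12.6% passed, and in the killer and innate lymphoid class AAV-sgBaat over mock was -1.75 (-4.88 to 0.25), and neither interval left out equality. The genes most like Abcc4 were Mcee (r = 0.786), Ptpre (0.769) and Plod3 (0.764).

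Over all classes 42 pairs of a class and a gene had at least 20 UMIs between AAV-sgBaat and AAV-sgSCR, from 14 classes and 7 of the genes, and 3 were past 2-fold. They were Abcb1b in CD8 cells, Abcc4 in type 1 dendritic cells and Rora in progenitors. For AAV-sgSCR over mock 9 of 36 were past 2-fold, and for AAV-sgBaat over mock 8 of 32. The pairs past it on the higher side were Abcb1a in CD8 cells and Nr1h3 in classical monocytes in both. Both comparisons share the mock library. In classes where a pair passed, the share of all genes was 12.2% to 15.5% for AAV-sgSCR over mock. It was 10.4% to 15.3% for AAV-sgBaat over mock. In classes where no pair passed, the share of all genes was 10.3% (killer and innate lymphoid), 10.6% (plasmacytoid dendritic) and 10.7% (B cell-like) for AAV-sgSCR over mock, and 14.6% (B cell-like), 17.8% (natural killer T) and 19% (CD4) for AAV-sgBaat over mock. In the first comparison the share of all genes past the fold was 4.39% in the killer and innate lymphoid class, 4.91% in classical monocytes, 6.32% in gamma-delta cells, 8.20% in natural killer T cells and 9.67% in CD4 cells, and none of the 9 genes passed in those classes. It was 5.41% in Dntt and Arpp21 T-like cells, 6.76% in plasmacytoid dendritic cells, 8.51% in immature and 9.73% in mature neutrophils and 9.05% in basophils and mast cells, again with none of the 9 past it. A count of 3 in 42 lies near these shares.

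Other genes of bile acid handling were compared in CD8 T cell-like cells between AAV-sgBaat and AAV-sgSCR. Of 16 other receptors and sensors 5 could be compared and none passed, with a median log2 ratio of -0.07 beside -0.06 for all genes. Each count stands beside 5.6% of all genes past 2-fold in this class. Of 15 carriers 3 could be compared, and Abcg2, an exporter of sulfated conjugates, was lower at 1.4 against 4.17 CPM. Of 17 enzymes of bile acid and oxysterol synthesis 4 could be compared and none passed (median -0.36). Of 16 liver X receptor targets 12 could be compared, with Apoc2 higher (1.13) and Apoc1 lower (-3.10), from 1 UMI in AAV-sgBaat. Of 14 cyclic AMP genes 12 could be compared and Prkar2b, a regulatory subunit of protein kinase A, was lower (-1.61). Of 13 genes of lipid mediators 7 could be compared, and Ptgs1 (-1.81) and Alox5ap (-1.04) were lower. Except for Abcg2, Apoc1 and Alox5ap the intervals of these genes spanned equality. Alox5ap was highest in neutrophil-like cells and Ptgs1 in macrophage-like cells, at means of 1570 and 128 CPM beside 4.12 and 1.25 in CD8 cells. Per 10000 UMIs of CD8 cells, neutrophil markers summed to 3.98 in AAV-sgSCR and 2.26 in AAV-sgBaat (0 and 2 of 8 at 0). Macrophage markers summed to 0.188 and 0.193 (0 and 1 of 8 at 0). The part of free RNA in these genes was not tested.

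Against mock, CD8 cells of AAV-sgSCR and AAV-sgBaat differed in some of the same lists, beside 15.5% and 10.4% of all genes past 2-fold. Naive-like cells were 59.6% of the class in mock, 4.42% in AAV-sgSCR and 6.97% in AAV-sgBaat, and their part was not tested. Sult2b1, which sulfates oxysterols, stood at 2.32 CPM in mock, 11.7 in AAV-sgSCR and 7.36 in AAV-sgBaat. Nr4a1, an early response receptor that can bind a bile acid metabolite, stood at 42.4, 11 and 19.3, and Crem, a cyclic AMP response gene, at 9.0, 32.3 and 19.3. Nr4a1 was also below mock in other classes, such as B cell-like cells at 219, 31.9 and 72.3 CPM. Apoe in CD8 cells stood at 4.36, 43.3 and 41.4 CPM, beside macrophage marker sums of 0.0639, 0.188 and 0.193 per 10000 UMIs in the same cells with 4, 0 and 1 of 8 at 0. Macrophage-like cells held Apoe at a mean of 23800 CPM, and the part of free RNA was not tested.

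The canonical bile acid genes of hepatocytes and gut had few counts or none. Nr1h4, the gene of the farnesoid X receptor, had 18 UMIs in all, Nr0b2, its target, 41, and Nr1i2, the pregnane X receptor gene, 7. Slc10a1, the hepatocyte bile acid importer, had 167, and Slc10a2 and Slco1a1 had 0. Others had higher means in some classes. Abcc3, an exporter of glucuronides, and Slco2b1, an importer, were highest in macrophage-like cells at means of 36.1 and 24.2 CPM. Their next classes stood at 2.34 and 3.68. Abcb4, the phospholipid floppase, was highest in progenitor-like cells at a mean of 25.0 CPM, with precursor B cell-like cells at 12.7. Its progenitor level was 46.2 CPM in AAV-sgSCR and 3.69 in AAV-sgBaat. Cyp27a1, an oxysterol enzyme, was highest in patrolling monocyte-like cells at 56.5, with macrophage-like cells at 29.9. Nr1h2, the gene of liver X receptor β, had 5648 UMIs and its highest mean, 59.2 CPM, in neutrophil-like cells, in contrast to the macrophage pattern of Nr1h3.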

How the data were processed

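Single-cell RNA libraries of liver immune cells from 3 groups were read, 1 library per group. Values are raw UMI counts of each gene in each barcode, as deposited and not normalized, and the file headers name Cell Ranger 6.0.1. No barcode in the matrices had under 500 gene UMIs. The submitters' processing notes name the build mm10. The 3 antibody samples have no table of their own here, and their tags were read from the same matrices. The labels' protocol names a version 2 kit, which is uncertain beside antibody capture.

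Analysis used Python 3.11.15 with scanpy 1.11.5, numpy 2.4.6, scipy 1.17.1 and igraph 0.11.9. Doublet candidates were the highest Scrublet scores at 0.8% per 1000 barcodes, and barcodes with panels of more than 1 lineage were set aside. The rest were clustered without the 9 genes (2000 variable genes, 30 components, 15 neighbours, Leiden resolution 1, seed 0), T-like clusters a second time, and named from marker lists. UMIs were summed per class and library. With 1 library per group nothing was tested. The ratio step was checked on simulated counts. The 9 genes, the marker lists and the pathway lists were chosen with earlier results of these data known. Every one of the 9 genes is described. Ratios are printed for each gene's leading class, for CD8 cells and for classes past 2-fold, and from each pathway list up to 4 genes with the largest ratios past 2-fold. Alternatives changed the barcodes kept, the depth, the scaling, the clustering, the naming and the UMI minimum. Promoter sequences came from RefSeq (GRCm38.p6), with entries for 8 of the 9 genes, and positions from its gene table.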

Additional observations from a re-analysis of the deposited data

How the results depend on the processing

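Of the 8 detected genes, thinning every cell to 1000 UMIs kept the leading class of 5, and classes drawn from marker UMIs kept that of 4. Thinning moved Vdr and S1pr2 to classical monocytes and Abcc4 to patrolling monocytes, and the marker classes moved Rora to CD4 T cells, Abcb1a to CD8 T cells, Abcb1b to plasmacytoid dendritic cells and Abcc4 to patrolling monocytes. The leading classes of Abcc1 and Nr1h3 were kept in every setting tried. The count of 3 pairs past 2-fold between AAV-sgBaat and AAV-sgSCR became 13 with every barcode kept, 1 after thinning, 1 at resolution 2, 6 with marker classes and 15 with a minimum of 10 UMIs. The causes were not tested, apart from the lower minimum, which admits pairs with fewer counts. Of 401 values of single ratios under 11 settings, 384 moved by less than their interval and 17 by more, and thinning moved 9 of the values by more and 6 by less. No ratio past 2-fold changed direction. Leaving out the dividing cells, the low-UMI T-like cluster, or counting 2 unnamed T clusters as CD8 was chosen after seeing the data.

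No paired analysis was possible because each group is 1 library. Differences between libraries cannot be told apart from differences between the pools or runs. Depth limits Vdr in every class and levels of a few CPM in classes of under 100 cells, and why Gpbar1 had no count was not tested.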
